A study of Equus caballus with 3 samples.

Results

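Expression of 9 genes that are widely used as markers of pericytes and other perivascular cells was examined in equine mesenchymal stromal cells (MSCs) by single-cell RNA sequencing (scRNA-seq). The markers were *CD248*, *PDGFRB*, *PDGFRA*, *RGS5*, *NOTCH3*, *CSPG4*, *MCAM*, *FOXS1*, and *CD34*, taken by name from the 29927 genes listed in the matrices, and all 9 were present. A single healthy warmblood mare, 10 years old, had given all of the MSCs, which were grown from fat (adipose tissue, AT), from marrow of the bone (BM), and from blood (PB), so that the 3 sources shared a donor and no agent or genotype distinguished them. Droplet capture marked each molecule with a barcode for its cell and with its own tag, the unique molecular identifier (UMI), in 1 library per source with transcripts read from the 3′ end. The sample titles set the sources used here, because another label named mononuclear blood cells for all 3 samples. A difference between sources is therefore also a difference between 3 single libraries, and no test was run across cells.

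Pericytes are mural cells that lie against the endothelium of small vessels, within its basement membrane, while fibroblast-like adventitial cells surround larger vessels. Endothelial cells release platelet-derived growth factor that recruits mural cells through the receptor PDGFR-beta, and contact between both cell types signals through Notch receptors. Since perivascular cells of many tissues give rise to MSCs in culture, several of these genes are measured on MSCs as signs of such an origin, although none of them is restricted to pericytes, and culture itself alters their expression.

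After a filter for 2500 to 15000 UMIs and for no more than 3% of UMIs from mitochondria, 5403 AT-, 5580 BM-, and 5318 PB-derived MSCs remained, with medians of 7291, 6874.5, and 7750 UMIs per cell. Levels are given as UMIs summed over these cells per 1000000 UMIs (CPM). Against the MSC label, 14 of 15 measured stromal genes reached 10 CPM in each source. The exception was *NT5E*, which encodes the MSC surface antigen CD73, at 0.225 to 1.03 CPM. Of 10 haematopoietic genes, 9 were below 1 CPM in each source, among them the pan-leukocyte gene *PTPRC* with no UMI. The other, *CD68*, was 6.88, 11.0, and 4.85 CPM in AT, BM, and PB. The 11 endothelial genes summed to between 4.10 and 6.15 CPM, with *KDR* and *TIE1* at 0 throughout. Most of the AT sum came from *ERG*, at 4.80 CPM, which was 1.24 CPM in BM and 2.67 CPM in PB. All 5318 PB barcodes that were kept also occurred in the AT library, where 5279 of them lay below the lower UMI limit. Only 72 to 77 kept barcodes per source were also kept in another library, and without these the same number of markers passed the threshold used below in every comparison.

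The deposited matrices, mapped to EquCab3.0, place *CD248* on chromosome 12, *PDGFRB* on chromosome 14, *PDGFRA* on chromosome 3, *RGS5* and *CD34* on chromosome 5, *NOTCH3* on chromosome 21, *CSPG4* on chromosome 1, *MCAM* on chromosome 7, and *FOXS1* on chromosome 22. *PDGFRB*, *RGS5*, *CSPG4*, and *CD34* are on the plus strand and the other markers on the minus strand. No start and end are given there, so exon structure was not used.

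The markers followed different patterns and did not all mark 1 source. *CD248* and *FOXS1* were highest in AT-derived MSCs, *MCAM* and *PDGFRB* in BM-derived MSCs, and *CSPG4* in PB-derived MSCs. *PDGFRA* had similar levels across sources, and *RGS5*, *NOTCH3*, and *CD34* had at most 42 UMIs in a source. For a sum of 0 UMIs in a source, a limit of 3 UMIs was set, which corresponds to 0.0750, 0.0746, and 0.0721 CPM in AT, BM, and PB. Intervals are exact 95% Poisson intervals for sums and exact Clopper-Pearson intervals for shares of cells, and both cover counting error only.

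**Figure D1:**
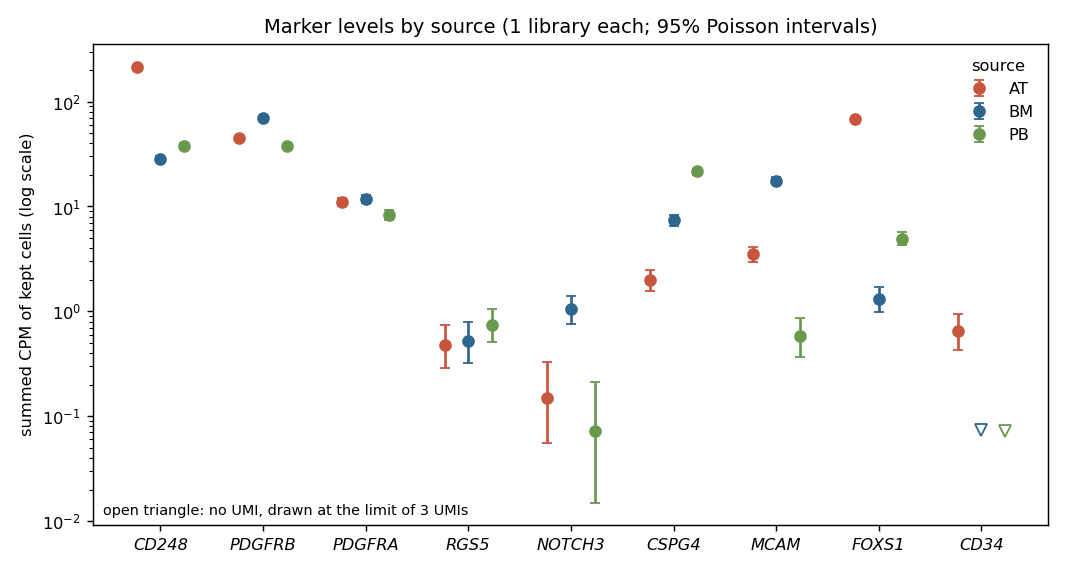
Summed CPM (log axis) of each marker in kept AT-, BM-, and PB-derived MSCs, 1 library each, with 95% Poisson intervals as bars and open triangles for sums of 0 drawn at the limit of 3 UMIs. *CD248* stands at 215 CPM in AT against 28.7 in BM and 38.0 in PB, and *CSPG4* and *MCAM* order the sources in opposite ways between BM and PB.

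Of the PDGF receptors, *PDGFRB*, the receptor by which mural cells are recruited, was measured in all sources at levels of the same order. Its CPM was 44.7 (42.7 to 46.9) in AT, 69.0 (66.5 to 71.6) in BM, and 37.9 (36.1 to 39.8) in PB. BM-derived MSCs were thus 1.54-fold (1.45 to 1.64) above AT and 1.82-fold (1.71 to 1.94) above PB, whereas AT exceeded PB by 1.18-fold (1.10 to 1.26). *PDGFRA*, the alpha receptor that is more typical of fibroblast-like stroma, had 11.0 CPM (10.0 to 12.1) in AT, 11.8 CPM (10.8 to 12.9) in BM, and 8.24 CPM (7.39 to 9.16) in PB. Its AT and BM levels did not differ beyond counting error, with a ratio of AT to BM of 0.930 (0.815 to 1.06). The small excess over PB was 1.34-fold (1.16 to 1.54) for AT and 1.44-fold (1.247 to 1.65) for BM.

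*CD248* encodes endosialin, a surface glycoprotein of pericytes and activated fibroblasts. The gene had 215 CPM (210.1 to 219) in AT, 28.7 CPM (27.02 to 30.4) in BM, and 38.0 CPM (36.2 to 40.0) in PB. AT-derived MSCs were 7.49-fold (7.04 to 7.97) above BM and 5.64-fold (5.35 to 5.96) above PB, and PB was 1.33-fold (1.23 to 1.43) above BM. *CD34*, a sialomucin of haematopoietic progenitors, endothelium, and adventitial stromal cells, was seen as 26 UMIs in 23 AT-derived MSCs, or 0.650 CPM (0.425 to 0.953), and as 0 UMIs in BM and PB. The AT level was 8.72-fold the limit of 3 UMIs in BM and 9.02-fold that in PB. These values are not lower bounds, as the intervals of the ratios began lower, at 6.60-fold over BM and 6.83-fold over PB. Of the 23 cells with *CD34*, 14 also had *CD248*, where 16.5 were expected at their depth.

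*CSPG4* and *MCAM*, the remaining surface markers, separated BM from PB in opposite directions. *CSPG4* encodes the proteoglycan NG2, a classical pericyte antigen. It was lowest in AT at 1.98 CPM (1.56 to 2.46), higher in BM at 7.38 CPM (6.57 to 8.27), and highest in PB at 21.6 CPM (20.2 to 23.01), which placed PB 10.9-fold (8.66 to 13.9) above AT and 2.92-fold (2.56 to 3.34) above BM. *MCAM* encodes CD146, an adhesion molecule of endothelium, pericytes, and clonogenic bone marrow stroma. It was highest in BM at 17.7 CPM (16.4 to 19.0), lower in AT at 3.50 CPM (2.95 to 4.13), and lowest in PB at 0.577 CPM (0.369 to 0.858). BM-derived MSCs were 30.6-fold (20.4 to 48.1) above PB and 5.05-fold (4.20 to 6.09) above AT in *MCAM*.

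*FOXS1*, a forkhead transcription factor expressed in perivascular and neural crest-derived cells, had the widest range among the markers detected in each source. Its levels were 68.8 CPM (66.3 to 71.4) in AT, 1.32 CPM (0.987 to 1.72) in BM, and 4.93 CPM (4.27 to 5.65) in PB. AT was 52.2-fold (39.8 to 69.9) above BM and 13.97-fold (12.1 to 16.2) above PB, and PB was 3.74-fold (2.75 to 5.16) above BM. *CD248* and *FOXS1* are among the AT genes that the study listed from these same libraries, so their direction here is not independent evidence.

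*RGS5*, a regulator of G protein signalling that is among the most specific transcripts of brain and heart pericytes, was hardly detected. There were 19 UMIs in 19 AT-derived MSCs, 21 UMIs in 21 BM-derived MSCs, and 31 UMIs in 30 PB-derived MSCs, or 0.475, 0.522, and 0.745 CPM. Every interval of its ratios between sources included 1, so no difference was detectable at this depth. *NOTCH3*, the Notch receptor of vascular smooth muscle cells and pericytes, had 6, 42, and 3 UMIs in AT, BM, and PB. BM-derived MSCs were therefore 6.96-fold (2.94 to 20.02) above AT and 14.5-fold (4.63 to 73.0) above PB, at a level of 1.04 CPM (0.752 to 1.41), while AT and PB could not be separated. Of the 9 markers, those most restricted to mural cells, *RGS5* and *NOTCH3*, had at most 42 UMIs in a source. *PDGFRB* and *CD248*, which fibroblasts also express, had at least 1153. The other markers did not split in this way, as *CD34* had at most 26 UMIs in a source and *PDGFRA* at most 476. *CSPG4* reached 897 UMIs in PB, *MCAM* 711 in BM, and *FOXS1* 2751 in AT.

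On the scale of log2(CPM + 1), a difference of at least 1 between sources was counted as past the threshold. A gene below 1 CPM in both sources cannot reach it, whatever its ratio. *RGS5* (at most 0.745 CPM) and *CD34* (at most 0.650 CPM) therefore could not pass. *NOTCH3*, at 1.04 CPM in BM, came to 0.93 in BM against PB. The shares of all genes with a UMI include such low genes as well. In AT against BM, 4 of 9 markers were past it, *FOXS1* (4.91) and *CD248* (2.86) higher in AT and *MCAM* (-2.05) and *CSPG4* (-1.49) higher in BM, where 7.28% of all genes with a UMI in either source were (1.79% toward AT and 5.49% toward BM). In AT against PB the number was again 4 of 9, with *FOXS1* (3.56), *CD248* (2.47), and *MCAM* (1.51) higher in AT and *CSPG4* (-2.92) higher in PB, against 7.03% of all genes (3.12% toward AT and 3.91% toward PB). In BM against PB, 3 of the 8 markers with a UMI passed, namely *MCAM* (3.57) higher in BM and *CSPG4* (-1.43) and *FOXS1* (-1.35) higher in PB, against 5.47% of all genes (3.93% toward BM and 1.54% toward PB). Both *PDGFRB* (-0.61, 0.23, and 0.85 in the same order of comparisons) and *PDGFRA* (-0.10, 0.38, and 0.47) stayed below the threshold in all of them.

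The count was repeated on genes with at least 10 CPM in either source, a filter that 5 markers passed in each comparison. Of these, 3 were past the threshold in AT against BM (2 toward AT and 1 toward BM) beside 10.8% of 7072 genes (2.46% and 8.33%). In AT against PB the number was 3 (2 toward AT and 1 toward PB) beside 9.82% of 6720 genes (4.02% and 5.80%), and in BM against PB it was 2 (1 toward each) beside 7.95% of 7066 genes (5.80% and 2.15%). A marker passes such a filter through the source in which it is high, so these counts describe the markers only. The median log2 difference of all genes in these sets was -0.24 in AT against BM, -0.03 in AT against PB, and 0.20 in BM against PB. Trimmed mean of M-values (TMM) scaling moved log2 ratios of CPM by 0.28, 0.04, and -0.23, respectively, and differences of log2(CPM + 1) of low genes by less. Under it the small differences of *PDGFRA* and *RGS5* between AT and BM changed sign (*PDGFRA* from -0.10 to 0.16 and *RGS5* from -0.04 to 0.05).

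Shares of cells with at least 1 UMI followed the summed levels. A UMI of *CD248* was present in 70.4% (69.1 to 71.6) of cells in AT, against 17.9% (16.9 to 19.0) in BM and 24.5% (23.4 to 25.7) in PB. *FOXS1* was seen in 32.3% (31.0 to 33.5), 0.735% (0.528 to 0.995), and 3.37% (2.90 to 3.89), respectively. For *PDGFRB* the shares were 27.2%, 37.7%, and 24.6%, for *PDGFRA* they were 7.42%, 7.78%, and 6.13%, and the AT and PB shares of *PDGFRB* lay closer to each other than either did to BM. For *CSPG4* the shares were 1.46% in AT, 4.84% in BM, and 15.2% in PB, and for *MCAM* they were 2.50%, 11.1%, and 0.451%. Shares of *RGS5* were between 0.352% and 0.564% of cells, *NOTCH3* was limited to 0.0564% to 0.735%, and *CD34* to 0.426% of AT-derived MSCs. Set at 3 cells with a UMI, the limit for a count of 0 of *CD34* was 0.0538% of BM cells and 0.0564% of PB cells. Its exact intervals reached 0.0661% and 0.0693%, respectively. Neither sets a limit on cells that express the gene without a UMI.

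A reduced depth lowered these shares without altering their order for the markers above 1 CPM in more than 1 source, except *PDGFRA*. When each cell was thinned to 2500 UMIs, *CD248* had a UMI in 37.8%, 6.99%, and 9.36% of AT-, BM-, and PB-derived MSCs and *FOXS1* in 13.6%, 0.323%, and 0.865%. Thinned shares of *PDGFRB* were 10.6%, 16.3%, and 9.21%, and those of *PDGFRA* were 2.79%, 2.74%, and 2.22%, so that AT and BM could not be ordered for the latter. *CSPG4* had a UMI in 0.463%, 2.03%, and 4.85% of cells and *MCAM* in 0.777%, 4.32%, and 0.188%. Since the cultures offered no class of cells known to be without these markers, the share that free RNA in droplets can give could not be measured, and shares under 1% are given as counts of cells with a UMI and not as counts of expressing cells.

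**Figure D2:**
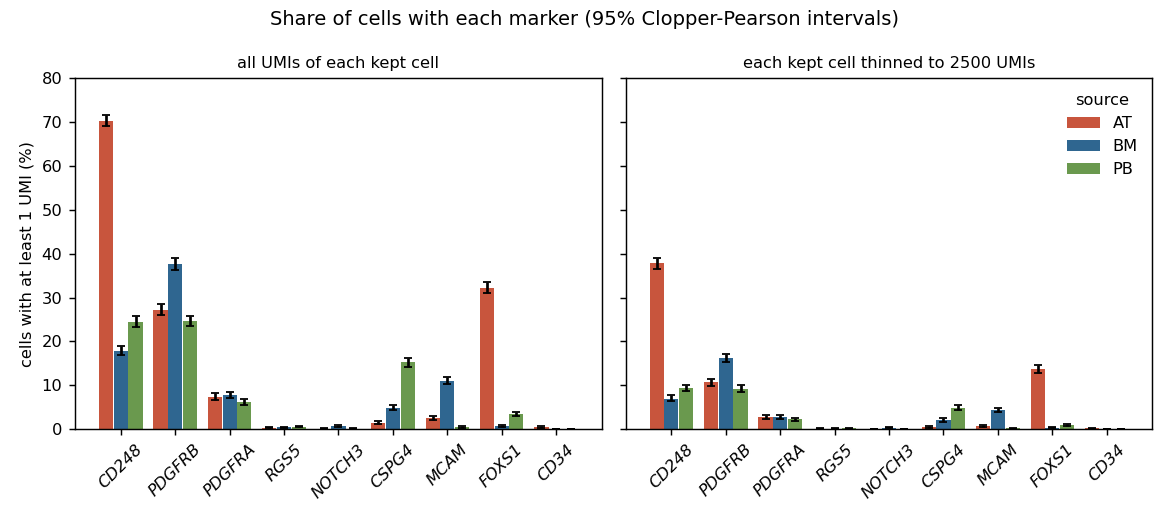
Percentage of kept cells with at least 1 UMI of each marker, using all UMIs (left) or after thinning each cell to 2500 UMIs (right), with 95% Clopper-Pearson intervals; bars start at 0. *CD248* in AT is at 70.4% with all UMIs and at 37.8% after thinning, above BM and PB in both panels.

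Whether a marker was spread over the cells of a source or gathered in some of them was examined against the share that its UMIs would give if divided among cells in proportion to depth. In AT-derived MSCs *CD248* was in 70.4% of cells where 76.4% would result, with up to 10 UMIs in a cell, and *FOXS1* was in 32.3% where 39.0% would result, with up to 8 UMIs in a cell. *PDGFRB* came closer to an even spread, at 27.2% against 27.7% in AT, 37.7% against 38.3% in BM, and 24.6% against 25.3% in PB. For *MCAM* in BM the shares were 11.1% and 11.9%, and for *CSPG4* in PB they were 15.2% and 15.4%. *FOXS1* was also below an even spread in BM, at 0.735% against 0.945%, and in PB, at 3.37% against 3.77%, and *CD34* in AT was at 0.426% against 0.480%.

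Occurrence in the same cells was measured as the number of cells with a UMI of both markers of a pair, divided by the number expected from their shares among cells of like depth (10 classes of total UMIs). Of 36 pairs per source, those with at least 10 expected cells were evaluated, which left 15 pairs in AT, 12 in BM, and 10 in PB. Most of these lay near 1, with medians of 1.03 in AT, 1.04 in BM, and 1.10 in PB. In AT-derived MSCs, *CD248* and *PDGFRB* were seen together in 1100 cells where 1080 were expected, a ratio of 1.02, and *CD248* and *FOXS1* in 1365 cells where 1300 were expected, a ratio of 1.05. Both PDGF receptors were seen together in 135, 179, and 92 cells of AT, BM, and PB where 117, 168, and 83.8 were expected, with ratios of 1.16, 1.07, and 1.10.

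A single pair, *PDGFRA* with *MCAM* in AT, was more than 25% above its expectation, and it rested on 15 cells where 11.0 were expected (ratio 1.36). With expectation drawn within the transcriptional clusters described next, its ratio was 1.54, and after thinning to 2500 UMIs it was 2.56 from 3 cells, with fewer than 10 expected cells in both cases. More than 20% below its expectation was *PDGFRA* with *FOXS1* in AT, seen together in 105 cells where 137 were expected (ratio 0.77). *CD248* with *RGS5* in AT (10 cells, 14.5 expected) and *PDGFRB* with *FOXS1* in BM (9 cells, 16.5 expected) were also that far below but rested on few cells. Within clusters the ratio of *PDGFRA* and *FOXS1* in AT was 0.86, and after thinning it was 0.92. In PB all 10 pairs lay between 0.893 and 1.16 when all UMIs were used.

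**Figure D3:**
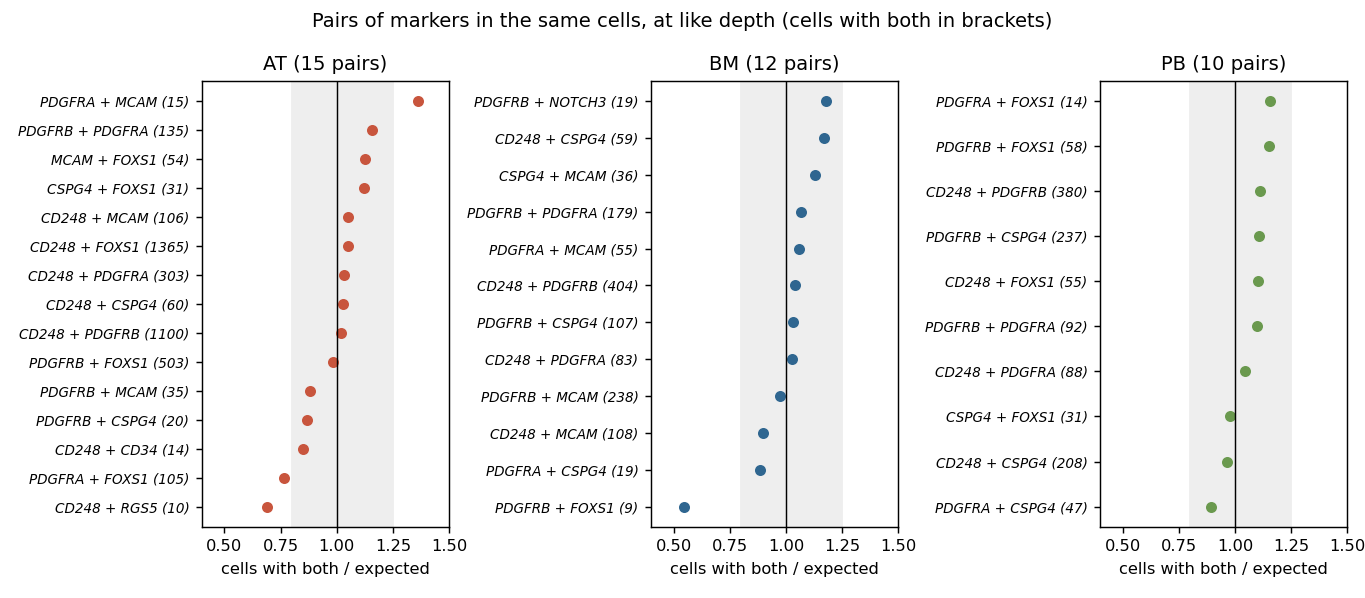
Ratio of observed to expected cells for every evaluated marker pair in AT (15 pairs), BM (12 pairs), and PB (10 pairs), with the number of cells holding both in brackets; grey marks the range from 20% below to 25% above expectation. Most points lie close to 1, with *PDGFRA* and *FOXS1* in AT at 0.77.

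Up to 3 markers, the number of different markers per cell also lay close to that expected for independent markers at like depth. The few cells with 4 or 5 markers were further from it. None of the 9 was seen in 15.8%, 40.2%, and 45.4% of AT-, BM-, and PB-derived MSCs, where 14.8%, 39.8%, and 44.4% were expected. Cells with 3 markers made up 11.3% of AT (expected 10.3%), 2.63% of BM (expected 2.55%), and 2.54% of PB (expected 2.37%). At 4 markers there were 43, 13, and 13 cells (59.5, 11.8, and 9.65 expected), and 5 markers, the most in any cell, were seen in 4 AT cells (2.38 expected) and 1 PB cell (0.306 expected).

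Transcriptional clusters were rebuilt in each source with the resolution and numbers of components that the study's methods name, but with a later Seurat version and without its removal of multiplets, giving 8 in AT, 8 in BM, and 10 in PB, and they are named here by number and leading genes. Cluster assignments of the study were not used here, and the rebuilt clusters are not its own and differ from them in number in AT and BM. Differences in a marker between clusters of the same cells are given as a description only. Levels of *CD248* in AT ranged from 137 CPM in cluster 7, led by *TOP2A* and *MCM5*, to 272 CPM in cluster 6, and no AT cluster came near the 20.6 to 39.2 CPM of the BM clusters. *PDGFRB* varied by 1.58-fold over AT clusters and by 1.61-fold over PB clusters of at least 100 cells, but by 2.85-fold over those of BM.

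Over the clusters of AT-derived MSCs, *FOXS1* and *PDGFRA* mostly ran in opposite directions. Cluster 0, with 1110 cells and the contractile genes *DES*, *ACTG2*, *ACTA2*, and *CNN1* in the lead, had the highest *FOXS1* (105 CPM), the highest *MCAM* (5.86 CPM), and the lowest *PDGFRA* (4.83 CPM). Cluster 7 had the highest *PDGFRA*, at 21.4 CPM, with *FOXS1* at 39.2 CPM, and cluster 4, led by *CDC20* and *CDCA3*, had the lowest *FOXS1*, at 32.5 CPM, with *PDGFRA* at 16.6 CPM. Pearson's r between both genes on the log2 scale was -0.78 over the 8 AT clusters, which share 1 library. Over the 7 BM clusters of at least 100 cells r was -0.81, at *FOXS1* levels of no more than 5.18 CPM, and over the 9 PB clusters it was 0.12.

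In BM-derived MSCs, cluster 3 set *MCAM* apart from *PDGFRB*. These 647 cells, led by *CALCA* and *EMB* and with 9.74% of cells called G1, had the highest *MCAM* (29.1 CPM) together with the lowest *PDGFRB* (31.9 CPM), *CSPG4* (2.95 CPM), and *NOTCH3* (0.164 CPM, 1 UMI). Cluster 0, the largest with 1367 cells, had the lowest *MCAM* (5.84 CPM) and the highest *CSPG4* (10.0 CPM) of the clusters of at least 100 cells, with *PDGFRB* at 69.7 CPM, near the level of the source. In clusters 1, 2, and 4 both *MCAM* (at least 20.8 CPM) and *PDGFRB* (72.4 to 90.9 CPM) were above the level of the source. *PDGFRB* and *NOTCH3* were both highest in cluster 2, led by *IGF2* and *EDNRA*, at 90.9 and 1.73 CPM. Median depth differed between these clusters (9468 UMIs in cluster 3, 6276 in cluster 0, and 6196 in cluster 2), and its part in these levels was not tested.

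In PB-derived MSCs, *CSPG4* ranged from 17.5 to 27.7 CPM over 9 clusters of at least 100 cells, the higher value in cluster 2, led by *IFITM5* and *TIMP3*. Cluster 8, 145 cells led by *NSG1* and *NDUFA4L2*, had the highest *CD248* (56.5 CPM) and *PDGFRB* (49.7 CPM) of these. Among these clusters of at least 100 cells, *FOXS1* was highest in cluster 6, led by the chemokines *CCL2* and *CCL7*, at 8.58 CPM, and lowest in cluster 2, at 2.18 CPM. Among the 40 interferon-responsive cells of cluster 9, marked by *CXCL10* and *ISG15*, *FOXS1* amounted to 4 UMIs, or 13.7 CPM (3.73 to 35.1).

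**Figure D4:**
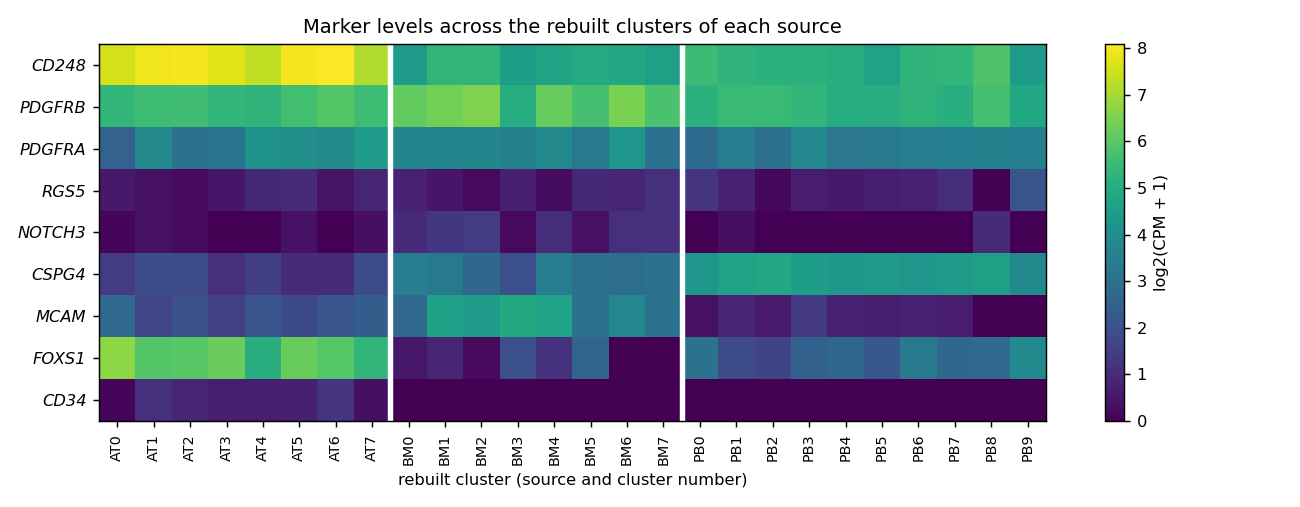
Level of each marker as log2(CPM + 1) in the rebuilt clusters of AT (0 to 7), BM (0 to 7), and PB (0 to 9). *CD248* and *FOXS1* are higher in each AT cluster than in any BM or PB cluster, and AT cluster 0 has the highest *FOXS1* and the lowest *PDGFRA* of AT.

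Levels of several markers differed between cell cycle phases, which were called from the expression of S and G2M genes. In AT, cells called G1, S, and G2M had medians of 7426, 7440, and 6624 UMIs. *CD248* in AT was 234 CPM (228 to 240) in G1, 199 CPM (190.0 to 208) in S, and 169 CPM (159.9 to 179) in G2M, and *FOXS1* was 77.7, 63.7, and 44.7 CPM in the same order. *PDGFRA* had the opposite order, at 8.77 CPM (7.62 to 10.0), 13.4 CPM (11.1 to 16.0), and 15.6 CPM (12.8 to 18.8). In BM-derived MSCs *MCAM* was 14.5 CPM (13.0 to 16.0) in G1, 25.7 CPM (22.3 to 29.5) in S, and 20.2 CPM in G2M. *PDGFRB* was 74.5, 62.2, and 56.8 CPM. Median depth in BM was 6504, 8245, and 7873 UMIs in these phases. BM cluster 3, with the highest *MCAM* and the lowest *PDGFRB*, had 9.74% of cells called G1. The parts of phase, cluster, and depth in these levels were not tested. *CSPG4* in PB was 21.6, 21.2, and 21.9 CPM in the 3 phases. With G1 cells alone, the markers past the threshold numbered 4, 4, and 4 in AT against BM, AT against PB, and BM against PB, as *NOTCH3* reached 1.07 in the last of these.

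Contractile genes of smooth muscle were compared between cells with and without a UMI of a marker. These groups were not matched for depth. For *FOXS1* in AT, cells with and without it had medians of 8063 and 6898 UMIs. In AT-derived MSCs, *ACTA2*, which encodes smooth muscle actin, was 930.3 CPM in the 1743 cells with *FOXS1* and 604 CPM in those without, and it was 1214 CPM in the 135 cells with *MCAM* and 707 CPM in those without. The 401 AT cells with *PDGFRA* had less, at 516 CPM against 739 CPM. *CNN1* (calponin) and *DES* (desmin) had the same directions as *ACTA2* for all of these markers in AT, by log2 differences of 0.41 and 0.48 with *FOXS1*, 0.72 and 0.57 with *MCAM*, and -0.51 and -0.46 with *PDGFRA*. Cells with *CD248* or *PDGFRB* differed little from those without, at 724 against 713 CPM and 657 against 748 CPM of *ACTA2*.

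Without cluster 0, which is itself led by these contractile genes, the differences in *ACTA2* for *FOXS1*, *MCAM*, and *PDGFRA* were smaller, and that in *DES* was 0.06 for *FOXS1*, 0.37 for *MCAM*, and -0.48 for *PDGFRA*. The log2 difference of *ACTA2* in AT was 0.27 for *FOXS1*, 0.48 for *MCAM*, and -0.27 for *PDGFRA*, and that of *CNN1* for *FOXS1* was -0.10. *FOXS1* was accompanied by *ACTA2* in PB as well, at 811 CPM in 179 cells with it and 605 CPM in the rest, and *MCAM* by *CNN1* in BM, at 220.1 CPM in 619 cells with it and 154 CPM in the rest. Median depth was 9300 against 7710 UMIs for *FOXS1* in PB and 7925 against 6767 UMIs for *MCAM* in BM. In PB and BM the comparison was not repeated without any cluster. *CSPG4* in PB went with slightly less *ACTA2* (535 against 629 CPM). The fibroblast collagen gene *COL1A1* differed by no more than 0.18 on the log2 scale between cells with and without *FOXS1*, *MCAM*, *PDGFRA*, or *CSPG4* in any source where at least 50 cells had the marker. *DCN*, which encodes the matrix proteoglycan decorin, was lower in cells with *FOXS1* in PB (874 against 1155 CPM, -0.40) and in cells with *MCAM* in BM (909 against 1092 CPM, -0.26).

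Genes with the most similar pattern to a marker were named from Pearson's r of log2(CPM + 1) over the 24 clusters of at least 100 cells in the 3 sources, among 5135 or 5136 genes that reached 20 CPM in some source. Clusters of a source share a library, so a high r mostly describes a shared order of sources. *CD248* was most like *MFAP4* (r = 0.968), which encodes a microfibril-associated protein and was 179 CPM in AT, 0.472 in BM, and 1.61 in PB, and like *MITF* (0.935). *FOXS1* was also most like *MFAP4* (0.935), then *CD248* itself (0.923) and *PLAC9* (0.922). *PDGFRB* was most like the chemokine gene *CXCL12* (0.938), followed by *VEGFB* (0.893) and *DLC1* (0.876).

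*CSPG4* was most like *COL6A3* (r = 0.960), a collagen VI chain gene at 29.7 CPM in AT, 214 CPM in BM, and 506 CPM in PB, and was also close to *SERTAD4* (0.955). *MCAM* was most like *RARRES1* (0.923) and the positional homeobox genes *HOXC8* (0.921) and *HOXA5* (0.914), which were 39.5 and 29.0 CPM in BM and at 0 in PB. *PDGFRA* had no close partner, the highest being *PPP2R5C* at 0.703. Within a source the partners were others, such as *MRC2* (0.983) for *CD248* over the 8 AT clusters, *TES* (0.953) for *MCAM* over 7 BM clusters, and *TEAD2* (0.893) for *CSPG4* over 9 PB clusters.

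A list of 35 other mural-cell genes, 34 of them in the matrices, gave context for the markers. Contractile genes of the list differed in level. *ACTA2* was 721, 763, and 613 CPM and *TAGLN* (transgelin) was 997, 1918, and 1637 CPM in AT, BM, and PB. *CALD1* was 1062, 1784, and 1411 CPM, *TPM2* 1007, 882, and 716 CPM, *MYL9* 661, 519, and 355 CPM, and *LMOD1*, *SMTN*, and *CNN1* lay between 23.7 and 162 CPM. *MYH11*, the smooth muscle myosin heavy chain gene, was 5.78, 4.03, and 1.03 CPM, and *MYLK* was 12.4, 22.7, and 1.44 CPM. Among other genes of the list, the ion channel genes *ABCC9* and *KCNJ8*, which mark brain pericytes, had no UMI in any source, like *FHL5*, *PLN*, *STEAP4*, and *AOC3*. *COX4I2*, *HIGD1B*, *GJA4*, and *HEYL* stayed below 1 CPM. Other low genes of the list were detected and differed between sources. *TBX18* had 169, 198, and 1 UMIs (4.23, 4.92, and 0.0240 CPM) in AT, BM, and PB, and *ZIC1* had 226, 43, and 0 UMIs (5.65, 1.07, and 0 CPM).

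Among list members with at least 10 CPM in either source, 1 was past the threshold toward AT and 1 toward BM in AT against BM (13 genes, median -0.61, beside 10.8% of all genes at this filter), *DES* (5.08) and *NES* (-3.06), with *MEF2C* at -0.996 just short of it. In AT against PB there were 4 toward AT and 2 toward PB of 13 (median 0.34, beside 9.82% of all genes), with *DES* (7.31) and *NDUFA4L2* (4.79) the largest toward AT and *MEF2C* (-2.92) and *NES* (-2.92) toward PB. BM against PB had 4 toward BM and 1 toward PB of 12 (median 0.43, beside 7.95% of all genes), where *NDUFA4L2* (4.28), *MYLK* (3.28), and *CNN1* (2.26) were higher in BM and *MEF2C* (-1.92) in PB. *NDUFA4L2*, a hypoxia-inducible mitochondrial gene also abundant in pericytes, was 249, 174, and 8.0 CPM in AT, BM, and PB, an order that neither *CSPG4* nor *PDGFRB* had.

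**Figure D5:**
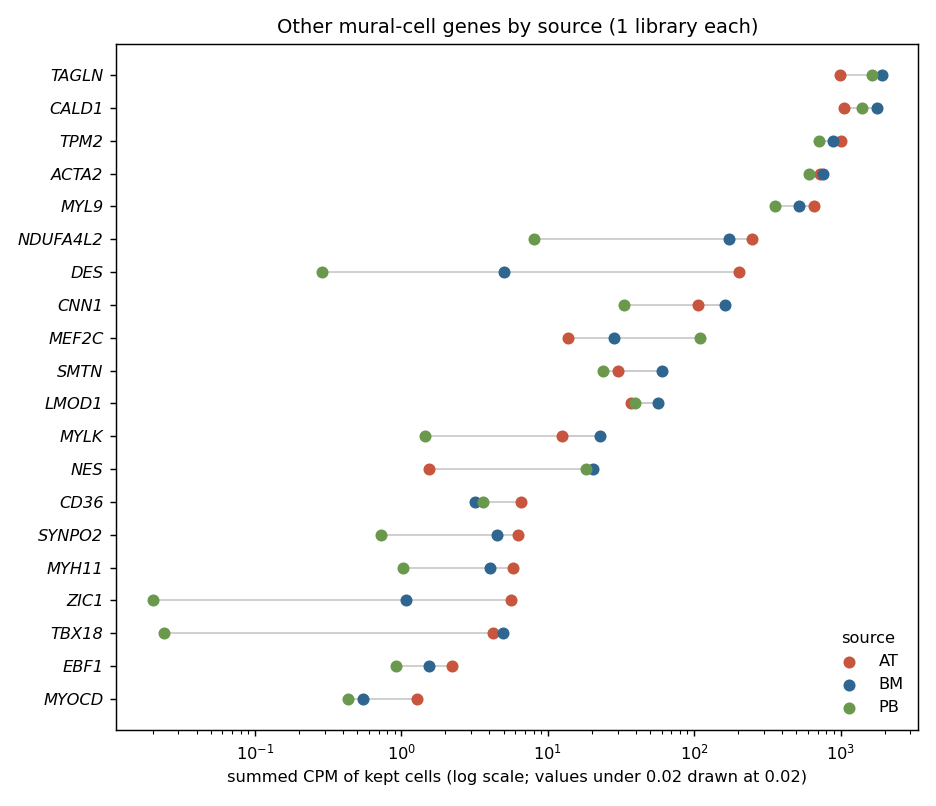
Summed CPM (log axis) of those mural-cell genes that reached 1 CPM in some source, for kept AT-, BM-, and PB-derived MSCs, 1 library each; values under 0.02, here *ZIC1* in PB with no UMI, are drawn at 0.02. *ACTA2* lies between 613 and 763 CPM in all sources, while *DES* spans 204 CPM in AT to 0.288 CPM in PB.

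Other genes of the pathways in which the markers act were taken from the same kind of list. For PDGF signalling, 8 genes reached 10 CPM in each comparison, and 0 were past the threshold in AT against BM, 1 in each direction in AT against PB (*SRC* 1.02, *PDGFC* -1.31), and 1 toward BM in BM against PB (*NRP1*, 1.58), beside 10.8%, 9.82%, and 7.95% of all genes in the respective comparisons. The ligand gene *PDGFC*, whose product binds the alpha receptor, was 33.5, 59.3, and 84.4 CPM in AT, BM, and PB. *PDGFB*, the endothelial ligand of PDGFR-beta, had at most 1 UMI per source (0.0250, 0.0249, and 0 CPM). The ligand gene *PDGFD*, below the filter of 10 CPM, had 25, 304, and 29 UMIs (0.625, 7.55, and 0.697 CPM). It was highest in BM, like *PDGFRB*.

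For the Notch pathway, 3 of 12 genes were past the threshold toward BM in AT against BM, *HEY2* (-3.88), *HEY1* (-1.74), and *MAML3* (-1.09), and 0 toward AT, beside 8.33% of all genes toward BM and 2.46% toward AT. *HEY2*, a transcriptional target of Notch, was 0.675, 23.7, and 4.81 CPM in AT, BM, and PB, highest in the source with the most *NOTCH3*. *HEY1* was 4.05, 15.9, and 19.0 CPM and did not share that order. The receptor gene *NOTCH2* was 52.2, 64.6, and 48.9 CPM, within the threshold in each comparison. In AT against PB, 1 gene of 10 passed toward AT (*MAML2*, 1.43) and 1 toward PB (*HEY1*, -1.98), and in BM against PB 2 of 12 passed toward BM (*HEY2* 2.09 and *RBPJ* 1.04), beside 9.82% and 7.95% of all genes in either direction.

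Of 17 relatives of *RGS5*, 9 in AT, 9 in BM, and 8 in PB were below 1 CPM. *RGS2* was 3.15, 14.2, and 31.2 CPM in AT, BM, and PB, the same order as *CSPG4*, and *RGS10* was 79.4, 25.5, and 44.1 CPM, the same order as *CD248*. Past the threshold were 1 gene toward each source in AT against BM (of 5 with 10 CPM), 1 toward PB in AT against PB (of 4), and 1 toward PB in BM against PB (of 5), beside 10.8%, 9.82%, and 7.95% of all genes. The same shares stand beside the adventitial genes below. Of genes of adventitial and perivascular stroma, 7, 6, and 7 reached 10 CPM in the respective comparisons. Of these, *TNC* (-3.34), *CXCL12* (-2.90), and *DPT* (-1.37) were past the threshold toward BM and *SEMA3C* (1.13) toward AT in AT against BM. *TNC* (-4.50) and *DPT* (-3.09) passed toward PB in AT against PB, and in BM against PB *CXCL12* (4.09) passed toward BM and *DPT* (-1.72) and *TNC* (-1.17) toward PB. *PI16*, *LEPR*, and *TCF21* had no UMI, and *DPP4* had UMIs only in BM, at 0.323 CPM. Other adventitial genes below 10 CPM were highest in different sources. Toward AT were *EBF2* (132, 8, and 0 UMIs in AT, BM, and PB), *CLEC3B* (50, 1, and 4), and *SFRP4* (51, 14, and 4). *ANGPT1* (0, 86, and 4 UMIs) was highest in BM, and *ANGPT2* (3, 13, and 182) and *GLI1* (16, 16, and 99) in PB.

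Markers of differentiated stroma also differed between sources. Of the osteoblast genes with at least 10 CPM, 4 of 5 were past the threshold toward BM in AT against BM, 4 of 4 toward PB in AT against PB, and 1 toward BM and 2 toward PB of 5 in BM against PB. Of all genes at this filter, 8.33% were past it toward BM in AT against BM, 5.80% toward PB in AT against PB, and 5.80% toward BM and 2.15% toward PB in BM against PB. *ALPL*, alkaline phosphatase, was 2.88, 96.0, and 326 CPM in AT, BM, and PB, in the order of *CSPG4*, and *IBSP* was 0, 32.3, and 0.673 CPM, highest in BM like *MCAM*. Whether these genes have a part in the levels of *CSPG4* or *MCAM* was not tested. Adipocyte genes reached 10 CPM in no source, and of the chondrocyte genes only *SOX9* did, at 12.7 CPM in BM.

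Several markers lie next to related genes or to genes with more UMIs in some source, whose UMIs could be confused with theirs because reads just downstream of genes were counted. Gene order was taken from the RefSeq annotation of another assembly (TB-T2T). Beside *PDGFRB*, the related receptor gene *CSF1R* had 2, 1, and 0 UMIs, and beside *PDGFRA*, *KIT* had 0 in all sources. Of the neighbours of *RGS5*, *RGS4* had 3, 0, and 1 UMIs and *NUF2* had 427, 579, and 288, more than *RGS5* itself. *EPHX3*, beside *NOTCH3*, was 9.13, 11.5, and 11.1 CPM, and *PLXNA2*, beside *CD34*, was 0.825, 17.1, and 6.44 CPM. *TMEM151A*, beside *CD248*, was 9.78, 7.55, and 20.7 CPM, and *RNF26*, beside *MCAM*, was 21.4, 31.3, and 23.9 CPM. *SNX33*, beside *CSPG4*, was 7.93, 6.51, and 4.37 CPM, above *CSPG4* in AT only. Whether any UMI of a marker came from a neighbour was not tested.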

How the data were processed

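Barcode assignment and mapping to EquCab3.0 had been done with Cell Ranger, and UMIs per gene had been taken with ESAT, with overlapping exons of opposite strands left out. The deposited matrices hold whole, unnormalized UMI counts, 1 for each gene in each barcode. From them, CPM of summed UMIs, differences of log2(CPM + 1), and shares of cells were computed (Python 3.11.15, SciPy 1.17.1). Clusters and phases were rebuilt with Seurat 5.3.0 and sctransform 0.4.2 (resolution 0.6, with 14 principal components in AT, 23 in BM, and 20 in PB), without the removal of multiplets by DoubletDetection that the methods name. TMM factors came from edgeR 4.0.16. Simulated counts were used to check the ratios and the pair measure. The kept cells held 39980656, 40239295, and 41622445 UMIs. With 1 library per source, no test was run.

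The markers, the gene lists, and the alternatives were chosen with earlier results of these data known. Genes named were the markers, up to 4 per list and comparison with the largest log2 difference among those with at least 10 CPM, mural genes at 50 CPM or more, and the 3 genes most like each marker with at least 300 UMIs. Others were named after their values were seen: low or absent mural and adventitial genes, and stromal, endothelial, and haematopoietic genes. The same holds for contractile genes set beside a marker, pathway ligands and receptors, and genes next to a marker. Genomic sequence was not used here.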

Additional observations from a re-analysis of the deposited data

Results flagged for a closer look

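*CSPG4* was also present among AT barcodes that were not kept. The 6155 AT barcodes below 2500 UMIs held 115 UMIs of it, or 20.8 CPM (17.2 to 24.97), above the 1.98 CPM of the kept AT cells and near the 21.6 CPM of PB-derived MSCs. All 115 were in the 5711 of these barcodes that the PB library also held, where *CSPG4* was 23.4 CPM, *CD248* 40.7 CPM, and *FOXS1* 6.91 CPM, against 21.6, 38.0, and 4.93 CPM in kept PB cells. No *CD34* UMI was seen in the AT barcodes below the limit.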

How the results depend on the processing

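No paired analysis was possible because each source had 1 library. The number of markers past a log2 difference of 1 stayed at 4, 4, and 3 (AT against BM, AT against PB, BM against PB) with TMM factors, mean single-cell CPM, no mitochondrial limit, no upper UMI limit, and when the top 5% of cells by Scrublet score were left out (the caller itself marked 1, 3, and 0 cells and was not relied on). It was 3 in AT against BM with all barcodes of at least 500 UMIs, and 4 in BM against PB after thinning. A pseudocount of 25 CPM, above the level of most markers, left 2, 2, and 0 of them. Removing every kept barcode held by another library left 4 in AT against BM and no PB cell to compare. Alternatives chosen after seeing the data, without barcodes kept in more than 1 library and with at least 500 UMIs but without the low AT barcodes that PB also held, gave 4, 4, and 3. No past difference changed sign under any of these alternatives. The number of marker pairs more than 25% above expectation in AT moved from 1 to 0 with thinning, with at least 2 UMIs per cell, and with expectation within clusters. The pair was then not evaluated, having fewer than 10 expected cells, and its ratio of 1.36 was 1.54 within clusters and 2.56 after thinning. In BM it moved from 0 to 2 in G1 cells. In PB it moved from 0 to 2 with thinning, 1 with no upper UMI limit, and 1 with at least 2 UMIs per cell. The thinned PB pairs were *PDGFRB* with *CSPG4* (1.47, 35 cells, 23.8 expected) and with *PDGFRA* (1.29, 14 cells, 10.9 expected). Thinning also put *PDGFRB* with *FOXS1* in AT at 0.75 (59 cells, 78.4 expected). In BM it put *CD248* with *MCAM* at 0.71 (12 cells, 16.8 expected) and with *PDGFRA* at 0.56 (6 cells, 10.7 expected). The cause was not tested. Depth limits *RGS5*, *NOTCH3*, and *CD34*, with at most 42 UMIs in a source, and pairs that include them.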
